A study of Mus musculus with 13 samples.

Results

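Accessible regions are not spread evenly along the mouse genome, and the places where many of them crowd together are described here. A region of the count table was taken as dense when it was narrower than 1500 bp, lay on an autosome and had at least 9 other region midpoints within 25 kb on either side of its own midpoint. These positions alone chose 11706 of 115295 regions, or 10.43% of the 112207 autosomal ones, and no read count entered the choice. Dense regions less than 25 kb apart were joined into 1666 clusters, which are numbered below by how many members they hold (C1 has the most). All positions are in mm9, as in the deposited table.

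The libraries are Omni-ATAC-seq, in which the Tn5 transposase cuts open chromatin and a count is the number of reads in a region. Single Vwf+ haematopoietic stem cells (HSCs), named for von Willebrand factor, had been transplanted into mice whose blood was followed for 16 weeks. Recipients were grouped as multilineage (MUL-HSC, 4 libraries), PEM-restricted (PEM-HSC, 6 libraries; platelets, erythroid and myeloid cells) or platelet-restricted (PLT-HSC, 3 libraries). Donor HSCs were then sorted from bone marrow with the phenotype LSKFlt3-CD150+CD48-CD45.2+Gata1- on a C57BL/6 background, 500 cells per library, so all groups share the donor type, the Vwf selection, a round of transplantation and the Gata1- gate. The donor cells of each recipient came from 1 transplanted cell. Whether libraries of a group came from separate recipients is not given in the labels. A p-value here therefore reflects the spread between these libraries, which may be technical. No annotation of the build was used, so the labelled cell type was not checked against marker genes. Because each library is a bulk sample, fewer open cells and less cutting per cell cannot be told apart.

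Open chromatin marks promoters, enhancers and insulators, where transcription factors displace nucleosomes. Such elements gather around gene-rich stretches and around developmental genes that are governed by many enhancers. Tandem repeats of a gene can also give a row of open sites, because each copy carries its own promoter.

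The clusters were mostly small. The median cluster held 5 members, 283 held 1, and 476 held at least 10, together 7052 of the dense regions. At the upper end, 78 clusters held at least 20 members, and the largest held 62. All clusters together spanned 44.1 Mb. Chromosome 11 carried the most dense regions, 1298 or 16.59% of its own, and 16 of the clusters with at least 20 members. Chromosome 16 had the smallest share, 5.92%, and none of those large clusters.

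The 12 clusters with most members held 509 dense regions. C1 had 62 members at chr10:80766615-81043961, C2 had 55 at chr8:126062361-126158735, and C3 and C4 had 47 each at chr14:26260963-26420252 and chr15:101040400-101245323. Next came C5 with 44 at chr13:23502939-23668048, C6 with 39 at chr2:32328890-32503073, and C7 and C8 with 38 each at chr17:5144279-5328449 and chr17:34161155-34348104. C9 at chr19:32276758-32419519, C10 at chr11:103099106-103243913 and C11 at chr10:79312704-79502822 held 35 each, and C12 at chr11:96112878-96216045 held 34. As background from the general mouse gene map, and not from a table of this build, C12 lies over the Hoxb genes, which encode homeodomain transcription factors active in HSCs. C5 lies in the main histone gene cluster, C3 over Zmiz1, a transcriptional co-regulator, and C4 beside Nr4a1, an orphan nuclear receptor. By the same map C7 lies in Arid1b, a subunit of a chromatin remodelling complex, C8 in the major histocompatibility complex, and C9 over Sgms1, a sphingomyelin synthase. These names are orientation only, and every result below is tied to the position.

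Tested dense regions had a slightly higher median level than other tested regions and a lower 95th percentile. Levels in CPM (counts divided by library depth after trimmed-mean normalisation) had a median of 9.12 over the 7492 members that passed the filter on low counts and 8.86 over the other tested autosomal regions. The 95th percentile was 46.8 CPM among members and 59.4 CPM elsewhere, and members made up 416 (8.32%) of the 5000 strongest tested autosomal regions against 12.9% of all of them. The rule bars regions of 1500 bp or more, which supplied 1887 of those 5000. Among regions under that width, members were 695 (13.9%) of the 5000 strongest and 13.6% of all tested, and the others had a median of 8.19 CPM and a 95th percentile of 47.5 CPM. Widths of members and all others were alike, with medians of 409 bp and 419 bp. Per kb of width, the median level was 18.1 CPM in tested members and 14.3 CPM in the other tested autosomal regions. A larger share of dense regions passed the filter, 64.0% against 50.4% of the others, and 4214 members did not pass it. That share rose with crowding, from 37.2% of regions with 0 to 1 neighbours to 63.0% with 9 to 11 and 66.9% with 12 to 15.

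**Figure D1:**
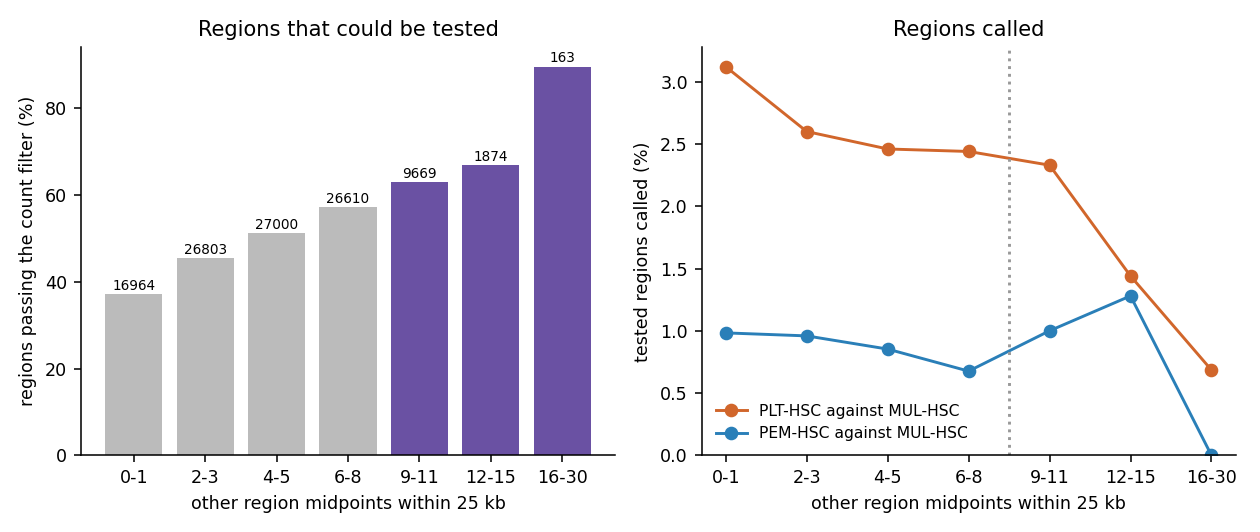
Left: share of autosomal regions narrower than 1500 bp that passed the count filter (%), by the number of other midpoints within 25 kb, with the number of regions above each bar and dense classes in purple. Right: share of tested regions called at an adjusted p under 0.05 (%) in PLT-HSC and PEM-HSC against MUL-HSC, with the dense classes right of the dotted line. The filter share climbs from 37.2% to 89.6%. The called share falls from 3.12% to 0.685% in PLT-HSC and lies between 0.0% and 1.28% in PEM-HSC. The last class has 146 tested regions, and without cluster C2 its filter share is 84.5% and its PLT-HSC called share 1.08%.

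Across libraries the dense regions together took a nearly fixed part of the reads. They held 11.1% ± 0.245 of the counts of MUL-HSC libraries (SD, n = 4), 11.01% ± 0.0971 of those of PEM-HSC (n = 6) and 11.02% ± 0.177 of those of PLT-HSC (n = 3), and the group ranges overlapped. Library totals ran from 1276962 to 3851165 counts and had group means of 2014000 (MUL-HSC), 2537000 (PEM-HSC) and 2995000 (PLT-HSC), so depth and group move together. The shallow libraries, 5 with under 2000000 counts, were replicates 1 and 2 of MUL-HSC together with replicates 2, 3 and 6 of PEM-HSC.

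Cluster C2 on chromosome 8 differed from the other large clusters in its layout. Its members followed each other at a median distance of 1.69 kb, and 47 of 54 gaps were within 10% of that distance. Up to 30 other midpoints lay within 25 kb of a member there, the highest crowding in the table, and the cluster had 5.71 members per 10 kb against 1.84 to 3.3 in the other 11. Among the 736 clusters of at least 7 members the median share of gaps within 10% of the cluster's own median was 11.1%. Only 2 clusters exceeded 80%, C2 and an 8-member cluster at chr6:114534552-114554784, and the next highest had 50%. The chromosome 6 cluster had a median spacing of 2.45 kb, with 6 of 7 gaps within 10%.

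The chromosome 8 spacing has a counterpart in the RefSeq gene table of the GRCm38.p6 build. That table lists a run of 51 genes on chromosome 8 between Gas8 and Rhou, joined where at most 5 kb apart. Of these, 41 carry a 5S ribosomal RNA name, and 48 are typed as ribosomal RNA and 3 as pseudogenes. Their median spacing was 1.70 kb, and 50 of 50 gaps were within 10% of it. 5S RNA is the small RNA of the large ribosomal subunit that RNA polymerase III makes from tandem gene copies. The builds differ, so C2 was matched to this run by chromosome and spacing only, and no coordinates were carried over. Short reads can map to several copies of a tandem repeat, and the placing of such reads is not stated in the sources used here, so the count of a single copy is uncertain.

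Raw counts in C2 did not follow the depth of the library. The cluster received 4515, 4439, 3860 and 4279 counts in MUL-HSC replicates 1 to 4, and 4395, 4144 and 4408 in PLT-HSC replicates 1 to 3. In PEM-HSC the lowest count was 3892, the median 5432 and the highest 5772. The highest and lowest of the 13 libraries thus differed 1.5-fold, while library totals differed 3.02-fold. A line of log2 count on log2 library total has a slope of 1 where a region takes a fixed share of the reads and 0 where its count is the same at any depth. That slope was 0.019 for C2. Over the 476 clusters of at least 10 members the median slope was 1.02, with 0.87 to 1.19 from the 5th to the 95th percentile, and the second lowest was 0.652.

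**Figure D2:**
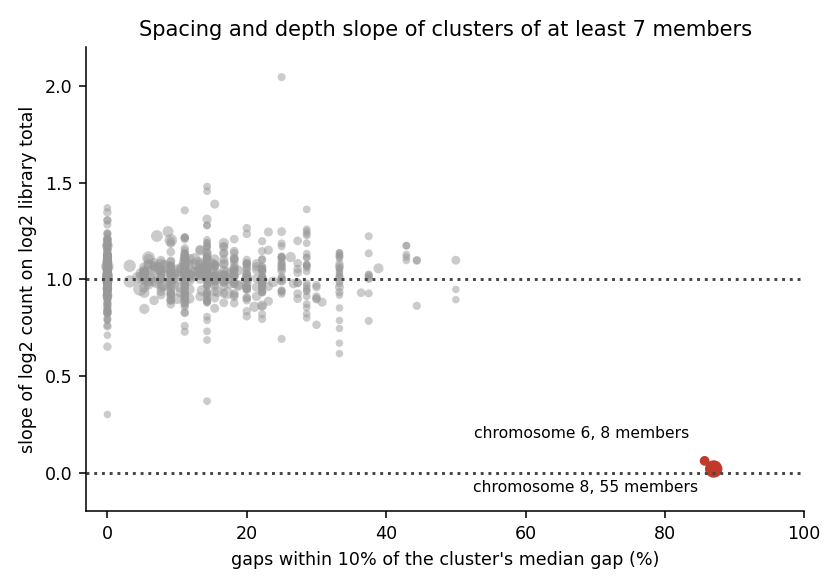
Each point is a cluster of at least 7 members, larger where it has more members; the x axis gives the share of gaps within 10% of the cluster's median gap (%), and the y axis the slope of log2 count on log2 library total over 13 libraries. The chromosome 8 cluster (slope 0.019) and the chromosome 6 cluster (0.061), in red, lie apart at over 80% regular gaps, and the other clusters lie mostly between 0.87 and 1.19.

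The flat counts ran through nearly the whole array. Slopes were under 0.5 in 53 of the 55 members, with a median of 0.02. The first member, chr8:126062361-126063158, had 82 to 148 counts per library and a slope of 0.01, and the strongest member, chr8:126147238-126148009, had 113 to 160 counts and a slope of 0.06. The last 2 members, which follow after wider gaps of 5.23 kb and 5.68 kb, behaved otherwise: chr8:126152470-126153228 had 8 to 40 counts and a slope of 0.98, and chr8:126158328-126158735 had 2 to 11 counts and a slope of 0.54. The regular part of the array is therefore also the part with flat counts.

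The chromosome 6 cluster repeated the pattern at a lower level. It received 197 to 324 counts per library, with a slope of 0.061, and all 8 of its members had slopes between -0.22 and 0.20. It sits inside a longer stretch, chr6:114461686-114587058, where 23 regions with at least 300 counts, 7 of them dense, had slopes under 0.5. Of their 22 gaps, 21 lay within 10% of that spacing from a whole multiple of it. No gene name was given to the stretch.

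Outside these arrays regions with slopes under 0.5 were scattered. As depth and group move together, such a slope can also go with a difference between groups. The dense region chr9:121828033-121828760, called lower in both restricted groups, had 306 counts and a slope of 0.34. Of the 3403 dense regions with at least 300 counts over the 13 libraries, 97 had a slope under 0.5, and 59 of those lay in the 2 arrays. The other 38 lay in 37 clusters, with at most 2 in any 1 of them. Without the arrays the share was 1.14% of dense regions, against 2.24% of the other autosomal regions with that many counts.

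On the CPM scale the level of C2 was therefore highest in shallow libraries and lowest in deep ones. The cluster summed to 2898, 3670, 1936 and 1631 CPM in MUL-HSC replicates 1 to 4 and to 1430, 1936 and 1454 CPM in PLT-HSC replicates 1 to 3. In PEM-HSC it ran from 1543 over a median of 2174 to 4951 CPM, with the highest value in replicate 2, the smallest library. The ranges of the groups overlapped. PLT-HSC libraries, the deepest on average, had the lowest mean: 1607 ± 285 CPM (SD, n = 3) against 2534 ± 930 in MUL-HSC (n = 4) and 2651 ± 1313 in PEM-HSC (n = 6). Of 54 tested members, 53 had a lower fitted level in PLT-HSC than in MUL-HSC (median log2 fold change -0.60) and 53 a lower one than in PEM-HSC (median -0.64), and both share the PLT-HSC libraries. Against MUL-HSC the PEM-HSC median was 0.03. Without the libraries under 2000000 counts the log2 fold change of the strongest member in PLT-HSC against MUL-HSC went from -0.53 to -0.15. None of these members passed an adjusted p of 0.05 in any comparison (edgeR), 2 had an unadjusted p under 0.05 in PLT-HSC against MUL-HSC, 0 in PEM-HSC against MUL-HSC and 4 in PLT-HSC against PEM-HSC.

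**Figure D3:**
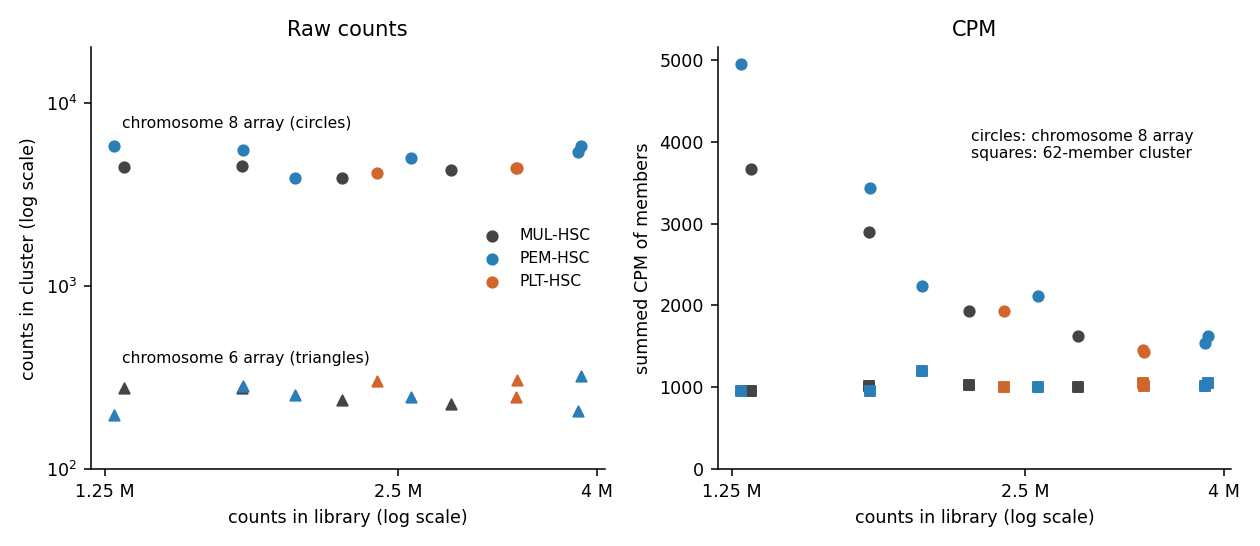
Left: raw counts of the chromosome 8 array (circles) and the chromosome 6 array (triangles) against the counts in each library, both on log axes, coloured by group; the circles stay between 3860 and 5772 at every depth. Right: summed CPM of the chromosome 8 array (circles) and of the 62-member cluster C1 (squares) against counts in the library; the circles fall from 4951 in the smallest library to 1430 to 1633 in the deep ones, while C1 stays between 951 and 1195.

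The other 11 large clusters scaled with depth, with slopes of 0.951 to 1.202. Apart from C12, described below, their group means differed from MUL-HSC by -0.16 to 0.18 on the log2 scale. C1 summed to 1003 ± 35.1 CPM in MUL-HSC (SD, n = 4), to 1029 ± 89.6 CPM in PEM-HSC (n = 6) and to 1021 ± 25.1 CPM in PLT-HSC (n = 3). C5, over the histone genes, had 668 ± 52.7, 688 ± 34.9 and 643 ± 51.1 CPM in the same order, and none of its 33 tested members was called. C8, in the histocompatibility complex, had 552 ± 31.2, 554 ± 26.8 and 536 ± 31.9 CPM. In all 3 clusters the group ranges overlapped. C6, C10 and C11 likewise had overlapping ranges, with log2 ratios of group means between -0.10 and 0.05 against MUL-HSC.

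A few of the large clusters had groups that did not overlap in summed level. C4, beside Nr4a1, ran from 622 to 703 CPM in MUL-HSC and from 732 to 768 in PLT-HSC, with 645 to 795 in PEM-HSC between and around them. C9, over Sgms1, ran from 246 to 285 CPM in MUL-HSC and from 291 to 314 in PLT-HSC. C7, in Arid1b, was lower in PLT-HSC, 329 to 356 CPM against 364 to 391 in MUL-HSC. C3, over Zmiz1, ran from 416.3 to 456.0 CPM in MUL-HSC and from 354.5 to 416.2 in PEM-HSC, so the closest libraries were nearly equal. The log2 ratios of the means were 0.18, 0.15 and -0.16 for C4, C9 and C7 in PLT-HSC and -0.15 for C3 in PEM-HSC, and no test was made on these sums. Among all tested single regions, 13.2% did not overlap in PLT-HSC against MUL-HSC and 3.59% in PEM-HSC. No such share was worked out for sums. Without the libraries under 2000000 counts the ratios were 0.18, 0.11 and -0.13 for C4, C9 and C7 and -0.10 for C3. In the libraries left, C6 did not overlap MUL-HSC in either restricted group, with ratios of 0.09.

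**Figure D4:**
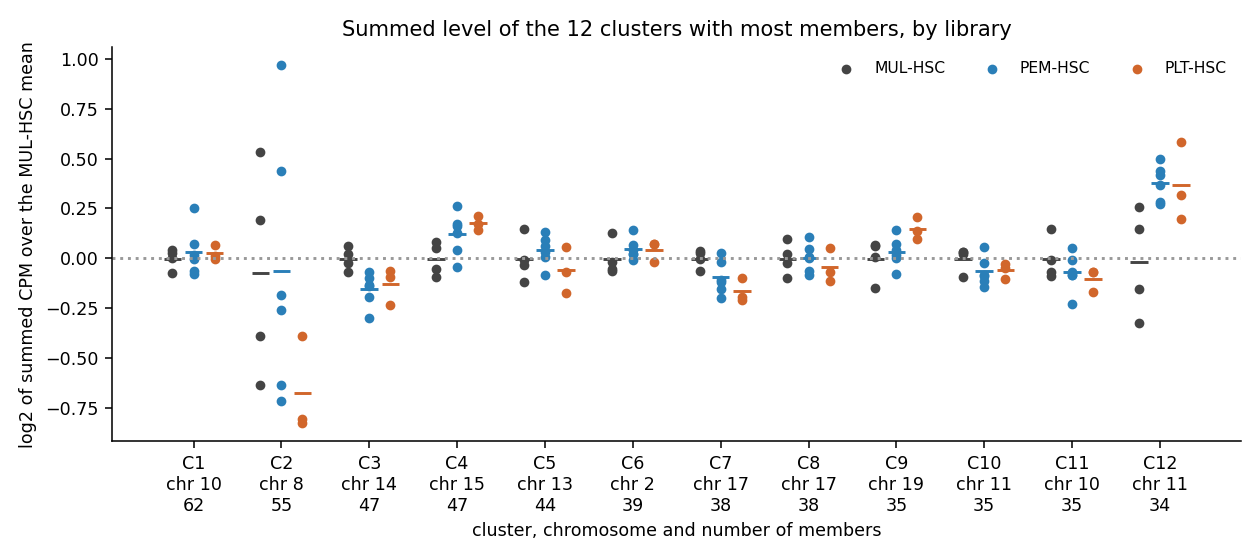
Log2 of the summed CPM of each of the 12 clusters over its MUL-HSC mean, by library (points) and group mean (bars of log2 values), with chromosome and number of members under each cluster. C2 spreads widest, and C12 lies higher in PEM-HSC and PLT-HSC with log2 ratios of means of 0.38 and 0.37. In the other clusters the ratios of group means to MUL-HSC stay between -0.16 and 0.18, while single libraries spread wider. Without the libraries under 2000000 counts the C12 ratios were 0.15 and 0.17.

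Within large clusters a few strong sites carried much of the level. In C7 the top 3 of 38 members supplied 51.8% of the summed CPM, and its strongest member, chr17:5327285-5328449, supplied 23.9%. C10 took 39.2% from its top 3. In C2 the top 3 supplied 8.09%, since the repeats were of similar strength, and 22 members were needed to reach 50% of the level against 3 in C7 and 10 in C1. The strongest members of the 12 clusters had mean levels between 30.9 CPM in C12 and 93.6 CPM in C11, and none of them was called in any comparison (edgeR, adjusted p of 0.0981 or more).

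C12, over the Hoxb genes, differed from MUL-HSC by 0.38 in PEM-HSC and 0.37 in PLT-HSC (log2 ratios of means), the widest differences from MUL-HSC after that of C2 in PLT-HSC (-0.66). It summed to 215, 241, 321 and 297 CPM in MUL-HSC replicates 1 to 4 and to 402, 308 and 335 CPM in PLT-HSC replicates 1 to 3. In PEM-HSC it ran from 324 to 379 CPM. All PEM-HSC libraries thus lay above all MUL-HSC ones, while PLT-HSC replicate 2 lay under MUL-HSC replicate 3. MUL-HSC replicates 1 and 2, both shallow, had the lowest values, and the slope of this cluster on depth, 1.202, was the highest of the 12. Without the libraries under 2000000 counts the log2 ratios fell to 0.15 in PEM-HSC and 0.17 in PLT-HSC, with 297 to 321 CPM in the 2 MUL-HSC, 327 to 359 in the 3 PEM-HSC and 308 to 402 in the 3 PLT-HSC libraries left. In the same libraries the ratio of C2 in PLT-HSC was -0.15. Of 30 tested members, 23 were higher and 7 lower in PLT-HSC than in MUL-HSC, with a median log2 fold change of 0.41, and 25 were higher and 5 lower in PEM-HSC, with a median of 0.48. Over all tested regions both medians were 0.01, and the 2 comparisons share the MUL-HSC libraries.

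The called members of C12 lay side by side near its first end, and were chosen after their values were seen. At chr11:96132260-96132611 the level was 0.642, 1.65, 2.01 and 1.14 CPM in MUL-HSC and 10.4, 9.34 and 2.31 CPM in PLT-HSC. In PEM-HSC it ran from 2.29 over a median of 6.41 to 8.31 CPM, so every library of the restricted groups lay above every MUL-HSC library. The log2 fold change was 2.37 ± 0.53 (SE) in PLT-HSC and 2.16 ± 0.50 in PEM-HSC, with adjusted p of 0.015 and 0.0338 (edgeR). The neighbour chr11:96132750-96133905 was higher in PLT-HSC, 21.2 ± 5.76 against 10 ± 4.81 CPM (adjusted p = 0.0443), and chr11:96131257-96131657 was higher in PEM-HSC, 12.4 ± 2.81 against 5.81 ± 2.0 CPM (adjusted p = 0.0426). The call at chr11:96132260 ended in PLT-HSC without MUL-HSC replicates 1 or 4 or PLT-HSC replicates 1 or 2, and in PEM-HSC without MUL-HSC replicates 1, 2 or 4 or PEM-HSC replicates 1, 2 or 5. The other 2 calls ended without MUL-HSC replicate 1, 2 or 4. That at chr11:96132750 also ended without PEM-HSC replicate 1 or PLT-HSC replicate 1 or 2, and that at chr11:96131257 without any of PEM-HSC replicates 1 to 5. The 50 kb windows over C12 did not pass, with adjusted p from 0.0736 to 0.528.

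In PLT-HSC against MUL-HSC, 161 of the 7492 tested dense regions were called at an adjusted p under 0.05 (edgeR quasi-likelihood test, Benjamini-Hochberg adjustment over 59408 regions), 76 higher and 85 lower. That is 2.15% of them, against 2.41% of all tested regions, 1.13% higher and 1.28% lower. The median log2 fold change was 1.5 among members called higher and -1.35 among those called lower, and 0.00 over all tested members against 0.01 over all tested regions. Levels of PLT-HSC and MUL-HSC libraries did not overlap at 1032 members, 13.8% of those tested, against 13.2% of all tested regions. PLT-HSC was the higher group at 510 of them and the lower at 522, against 6.67% and 6.56% of all tested regions. These shares were close to those of all regions. By crowding, the called share fell from 3.12% of tested regions with 0 to 1 neighbours to 2.33% with 9 to 11 and 1.44% with 12 to 15. This trend was not tested.

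The PLT-HSC count rested on single libraries. It was 59, 70 and 48 without MUL-HSC replicates 1, 2 and 4, and 34, 67 and 251 without PLT-HSC replicates 1, 2 and 3. It was 25 without the libraries under 2000000 counts, which leaves 2 MUL-HSC libraries, and 0 with 1 surrogate variable in the fit.

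Among members called higher in PLT-HSC, the site of smallest p was chr7:4449771-4450267. It had 7.06, 7.44, 8.53 and 8.39 CPM in MUL-HSC and 26.7, 24.3 and 27.4 CPM in PLT-HSC. PEM-HSC lay between them without overlap, from 12 over a median of 15.7 to 19.5 CPM. The log2 fold change was 1.71 ± 0.22 (SE) in PLT-HSC (edgeR, adjusted p = 0.000113) and 1.0 ± 0.21 in PEM-HSC (adjusted p = 0.0202). The PLT-HSC groups were also separate from PEM-HSC here, but that difference of 0.71 ± 0.18 had an adjusted p of 0.723.

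The member chr8:4304026-4304637 was nearly closed in MUL-HSC. It had 0.0, 0.0, 2.01 and 0.381 CPM there, 5 counts in 4 libraries, against 14.6, 15.9 and 5.94 CPM in PLT-HSC and 3.13 to 13.7 CPM in PEM-HSC. Fitted log2 fold changes were 4.05 ± 0.62 and 3.37 ± 0.61, with adjusted p of 0.00117 and 0.0109 (edgeR), and at so few counts their size depends on the prior count.
At chr18:65116864-65117603 the group means were 2.58 ± 1.58, 7.3 ± 2.45 and 14.6 ± 2.95 CPM in MUL-HSC, PEM-HSC and PLT-HSC, and none of the 3 groups overlapped. At chr14:121834955-121835593 they were 4.22 ± 0.94, 10.9 ± 3.17 and 19.7 ± 9.21 CPM. The latter was called in PLT-HSC (adjusted p = 0.00129) and had an adjusted p of 0.0596 in PEM-HSC. Both were thus highest in PLT-HSC and lowest in MUL-HSC, while PLT-HSC against PEM-HSC had adjusted p of 0.865 and 0.922.

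At chr9:107874050-107874881 both restricted groups were called higher. It had 15.4, 14.1, 23.1 and 10.3 CPM in MUL-HSC, 34.5, 48.6 and 35.6 CPM in PLT-HSC, and 24.7 over a median of 33.0 to 38.4 CPM in PEM-HSC. All 9 libraries of the restricted groups lay above the highest MUL-HSC library. Log2 fold changes were 1.33 ± 0.21 in PLT-HSC (edgeR, adjusted p = 0.001) and 1.03 ± 0.19 in PEM-HSC (adjusted p = 0.00962).

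Of the members called lower in PLT-HSC, chr15:63853365-63853914 had the smallest p. It had 8.98, 18.2, 18.1 and 14.9 CPM in MUL-HSC and 3.58, 4.2 and 3.3 CPM in PLT-HSC, with a log2 fold change of -2.02 ± 0.31 (edgeR, adjusted p = 0.000722). PEM-HSC, from 7.64 to 13.1 CPM, overlapped MUL-HSC and had an adjusted p of 0.228, and PLT-HSC lay under all PEM-HSC libraries with an adjusted p of 0.519. At chr2:148222720-148223841 the level was 39.1, 33.1, 26.6 and 29.4 CPM in MUL-HSC, 8.46, 13.5 and 13.9 CPM in PLT-HSC and 6.01 to 16.1 CPM in PEM-HSC. Every library of the restricted groups was under every MUL-HSC library, and log2 fold changes were -1.42 ± 0.24 and -1.37 ± 0.20 (adjusted p of 0.0015 and 0.0017).

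One named member divided the MUL-HSC libraries. At chr4:119904633-119904960 MUL-HSC replicates 1, 2 and 4 had 12.8, 16.5 and 13 CPM and replicate 3 had 1.5 CPM, close to the restricted groups. PLT-HSC had 0.976, 0.467 and 0.33 CPM, 5 counts in all, and PEM-HSC had 0.573 to 2.26 CPM. Fitted log2 fold changes were -4.03 ± 0.68 and -2.88 ± 0.49 (edgeR, adjusted p of 0.0015 and 0.00408), the PEM-HSC range overlapped that of MUL-HSC, and at these counts the sizes depend on the prior count.

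The remaining named members called lower in PLT-HSC were chr9:121828033-121828760, with 20.4 ± 5.54 CPM in MUL-HSC against 5.93 ± 1.15 in PLT-HSC, and chr3:89676076-89676613, with 13.6 ± 4.47 against 3.54 ± 0.542. Both were also called lower in PEM-HSC, with adjusted p of 0.0163 and 0.0438 (edgeR). Depth went with direction among the members named for a call. Slopes of count on library total were 1.33 to 2.24 in those called higher and -0.04 to 0.85 in those called lower, as the groups differ in depth, and the part of depth in these calls was tested only by leaving out the shallow libraries. Without these, the PLT-HSC calls of chr7:4449771, chr18:65116864, chr8:4304026, chr15:63853365 and chr2:148222720 stayed under 0.05. Those of chr9:107874050, chr14:121834955, chr9:121828033 and chr3:89676076 did not, and chr4:119904633 was not tested there.

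**Figure D5:**
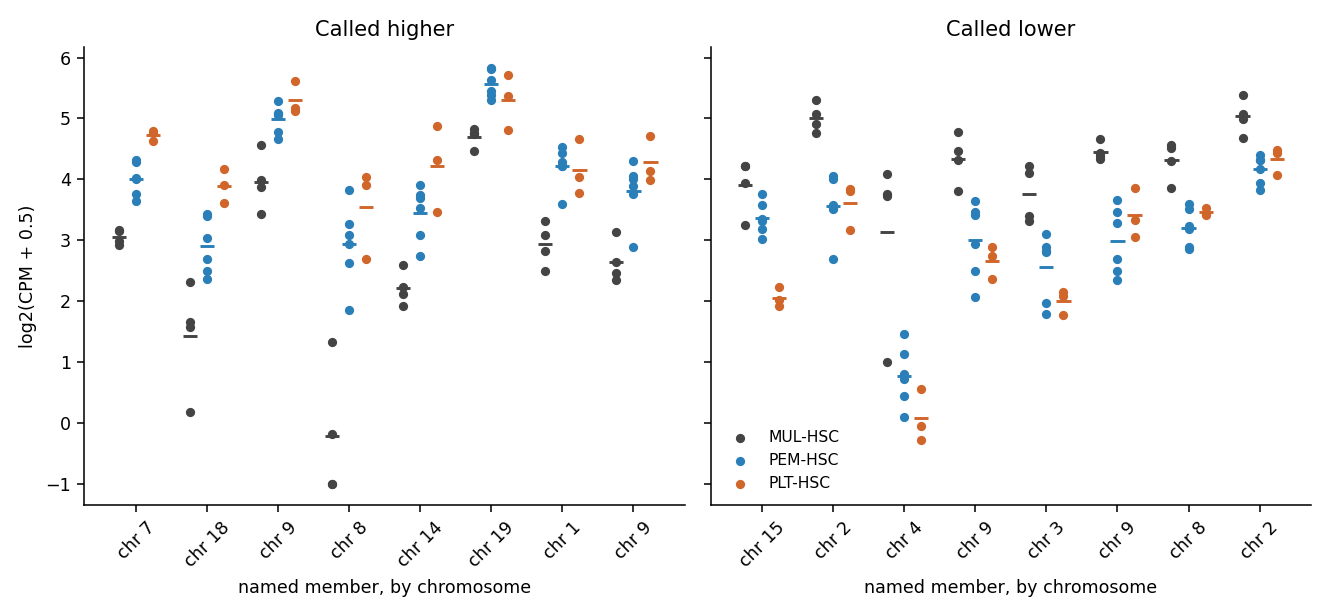
Log2(CPM + 0.5) of the named members called higher (left) and lower (right) in PLT-HSC or PEM-HSC against MUL-HSC, by chromosome, with a point per library and a bar at each group mean. MUL-HSC libraries lie mostly at the low end on the left and at the high end on the right. On the right, MUL-HSC replicate 3 at the chromosome 4 member (1.5 CPM) and replicate 1 at the chromosome 15 member (8.98 CPM) fall among PEM-HSC libraries. On the left, PEM-HSC replicate 3 at chr9:58789541 (6.88 CPM) and PLT-HSC replicate 2 at the chromosome 19 member (27.6 CPM) fall within the MUL-HSC range.

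In PEM-HSC against MUL-HSC, 77 dense regions were called (edgeR), 25 higher and 52 lower. That is 1.03% of those tested, against 0.832% of all tested regions, 0.242% higher and 0.589% lower. The median log2 fold change of called members was 1.08 among those higher and -1.21 among those lower. Groups did not overlap at 282 members, 3.76%, against 3.59% of all tested regions, with PEM-HSC higher at 121 and lower at 161 of them (1.51% and 2.08% of all). Leaving out MUL-HSC replicates 1, 2, 3 or 4 gave 8, 8, 160 and 2 calls, and leaving out PEM-HSC replicates 1, 2 or 5 gave 20, 30 and 21. The count was 1 without the libraries under 2000000 counts and 0 with 1 surrogate variable.

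Some members named for this comparison are described above. Higher in PEM-HSC were also chr19:43675392-43676376, with 26.3, 21.5, 26.6 and 27.8 CPM in MUL-HSC and 38.8 over a median of 46.1 to 56.2 CPM in PEM-HSC, and chr1:133015136-133016044, with 5.13 to 9.53 CPM against 11.6 to 22.6 CPM. Neither pair of ranges overlapped, and log2 fold changes were 0.87 ± 0.16 and 1.28 ± 0.25 (edgeR, adjusted p of 0.00962 and 0.0136). In PLT-HSC the chromosome 19 member had 51.7, 27.6 and 40.9 CPM and an adjusted p of 0.0545, and replicate 2 overlapped MUL-HSC. The chromosome 1 member was called there too (adjusted p = 0.0138), a call that ended without MUL-HSC replicate 1 or PLT-HSC replicate 1.

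Lower in PEM-HSC were chr9:40131801-40132275 at 7.97 ± 3.15 against 21.5 ± 2.3 CPM, chr8:73377638-73378228 at 8.93 ± 2.0 against 19.7 ± 4.15 CPM, and chr2:158000274-158001511 at 17.6 ± 2.78 against 32.8 ± 6.7 CPM (SD, n = 6 and 4). None of these 3 members overlapped between the groups, and adjusted p ran from 0.00634 to 0.0109 (edgeR). All 3 were also lower in PLT-HSC, with adjusted p from 0.0383 to 0.0437, and these calls ended without MUL-HSC replicate 1, 2 or 4 or PLT-HSC replicate 1 or 3, those at chr8:73377638 and chr2:158000274 also without PLT-HSC replicate 2. Without MUL-HSC replicate 4 the PEM-HSC calls of chr9:107874050, chr8:4304026, chr19:43675392, chr1:133015136, chr9:58789541, chr8:73377638 and chr2:158000274 ended. Some of these also ended without MUL-HSC replicate 1 (chr8:4304026, chr1:133015136 and chr9:58789541), MUL-HSC replicate 2 (chr8:4304026, chr19:43675392, chr1:133015136, chr8:73377638 and chr2:158000274) or PEM-HSC replicate 5 (chr9:58789541). The PEM-HSC calls at chr7:4449771, chr9:121828033 and chr3:89676076 ended without MUL-HSC replicate 1, 2 or 4, the first also without PEM-HSC replicate 5, and the last also without PEM-HSC replicate 1, 2 or 5. Those of chr2:148222720 and chr9:40131801 held with each library left out in turn. The chr4:119904633 member fell below the count filter without MUL-HSC replicate 1, 2 or 4 and was not tested there, and its call held in the other 10 fits.

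Between the 2 restricted groups, PLT-HSC against PEM-HSC, 0 dense regions were called by edgeR and 0 by DESeq2, against 0.00168% of all tested regions by edgeR. An unadjusted p under 0.05 was reached by 303 members, 4.04% of those tested, against 4.61% of all tested regions. Groups did not overlap at 171 members, 2.28%, against 2.29%, with PLT-HSC higher at 101 and lower at 70 of them (1.32% and 0.968% of all tested regions). The median absolute log2 fold change was 0.17 among members, with a median standard error of 0.28.

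Most clusters with a called member held just 1. In PLT-HSC against MUL-HSC 143 of the 1487 clusters with a tested member held at least 1 called member, 127 of them exactly 1, 14 held 2 and 2 held 3. Of the 78 clusters with at least 20 members, 20 held a called member, and a cluster with more tested members has more that can be called. Over all clusters 2.15% of tested members were called, against 2.41% of all tested regions. No number of clusters to be met by chance was worked out. In 4 clusters the called members went in both directions. In PEM-HSC against MUL-HSC 73 clusters held a called member and 4 held 2, with 1.03% of tested members called against 0.832% of all tested regions. The nearest tested region to a called member, at a median distance of 3.23 kb, went the same way at 103 of 161 members (64.0%) in PLT-HSC. Of the 1259 called autosomal regions that are not dense, 1008 had a tested region within 25 kb. The nearest one went the same way at 674 of these (66.9%) and lay at a median of 5.86 kb. That neighbour was itself called at 15 of the 161 members (9.32%), against 2.15% of all tested members, and at 50 (4.96%) of those 1008 regions. In PEM-HSC the order was reversed, with that neighbour called at 2 of 77 members (2.6%) and at 14 (4.27%) of 328 called regions that are not dense. In PLT-HSC its median change in the direction of the call was 0.13 on the log2 scale, against 1.41 at the called members themselves.

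Both clusters with 3 called members were chosen after their values were seen. The cluster at chr9:58789059-58797070, which by the general gene map lies in Neo1, the gene of the receptor neogenin, had 5 members of which 3 were tested, all called higher in PLT-HSC. Its strongest, chr9:58789541-58790288, had 5.78, 8.27, 5.02 and 4.58 CPM in MUL-HSC and 25.7, 15.4 and 17.1 CPM in PLT-HSC, and 6.88 over a median of 14.9 to 19.2 CPM in PEM-HSC. PLT-HSC lay above all MUL-HSC libraries, and PEM-HSC replicate 3 fell within the MUL-HSC range. Log2 fold changes were 1.79 ± 0.30 in PLT-HSC and 1.36 ± 0.28 in PEM-HSC (edgeR, adjusted p of 0.0015 and 0.0182).

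The other 2 members there were nearly closed in MUL-HSC. They had 3 and 5 counts over the 4 MUL-HSC libraries and 42 and 41 counts over the 3 PLT-HSC libraries. Adjusted p were 0.0104 at chr9:58796045-58796469 and 0.0443 at chr9:58796736-58797070 (edgeR). The first call ended without MUL-HSC replicate 4 or PLT-HSC replicate 1, and the second without MUL-HSC replicates 1, 2 or 4 or PLT-HSC replicate 1. The first was not tested without PEM-HSC replicate 6, nor the second without PEM-HSC replicates 2 or 5. Neither was tested with only the compared groups in the fit or at a mean of at least 20 counts. With so few MUL-HSC counts, both passed the filter through the restricted groups, where they were high. That all 3 tested members were called higher is therefore partly set by the filter.

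In the cluster at chr7:26490871-26574034, with 19 members and 13 tested, called members close to each other went opposite ways. The member chr7:26495008-26495380 was lower in PLT-HSC, 9.36 ± 3.66 against 18.0 ± 3.15 CPM in MUL-HSC (adjusted p = 0.0433, edgeR). Its near neighbour chr7:26496715-26497287 was higher, 27.2 ± 7.88 against 14.9 ± 3.73 CPM (adjusted p = 0.0405), and so was chr7:26505971-26506468, 12.2 ± 3.5 against 4.64 ± 1.77 CPM (adjusted p = 0.0192). Each of these calls ended without MUL-HSC replicate 1 or 4 or PLT-HSC replicate 1 or 2. Those at chr7:26495008 and chr7:26496715 also ended by DESeq2, with only the compared groups in the fit, and without MUL-HSC replicate 2 or PEM-HSC replicate 1, and the former without MUL-HSC replicate 3.

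Within the 12 large clusters the only other called members were chr17:34205798-34206435 in C8 and chr10:80863954-80865201 in C1. The first was lower in both restricted groups, with 12.4 ± 2.39, 4.73 ± 1.69 and 3.59 ± 1.74 CPM in MUL-HSC, PEM-HSC and PLT-HSC and adjusted p of 0.00812 in PLT-HSC and 0.0322 in PEM-HSC (edgeR). The second was higher in PEM-HSC, 26.8 ± 4.03 against 14.5 ± 3.77 CPM (adjusted p = 0.025), with 22.9 ± 3.61 CPM in PLT-HSC. Leaving out PLT-HSC replicate 1 ended the C8 call in PLT-HSC, and leaving out MUL-HSC replicate 1, 2 or 4 ended both PEM-HSC calls. The PEM-HSC call in C8 also ended without PEM-HSC replicate 1 or 2, and that in C1 without PEM-HSC replicate 5.

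Summing all regions in fixed windows of 50 kb gave each locus more reads. In PLT-HSC against MUL-HSC, 87 of 2517 tested windows with a dense member were called (edgeR, adjusted over 24299 windows), 45 higher and 42 lower. That is 3.46%, against 3.04% of all windows. In PEM-HSC against MUL-HSC 17 were called, 2 higher and 15 lower, or 0.675% against 0.93%, and in PLT-HSC against PEM-HSC 0 by edgeR and 0 by DESeq2, against 0.0% of all windows. An unadjusted p under 0.05 was reached there by 136 windows with a dense member, 5.4%, against 4.78% of all windows. Among the 291 windows with at least 10 members, 16 were called in PLT-HSC, 5 higher and 11 lower, or 5.5% against 3.04% of all windows (1.72% against 1.47% higher, 3.78% against 1.58% lower). In PEM-HSC 4 were called, all lower, or 1.37% against 0.683% of all windows called lower. An unadjusted p under 0.05 (edgeR) was reached by 25.1% of them against 17.4% of all windows in PLT-HSC, and by 27.8% against 14.8% in PEM-HSC. A window with more regions sums more reads, and these windows were not matched to others by counts. No test was made of these shares. The PLT-HSC count was 26, 34 and 33 without MUL-HSC replicates 1, 2 and 4 and 11 and 28 without PLT-HSC replicates 1 and 2. The PEM-HSC count was 1, 2, 65 and 2 without MUL-HSC replicates 1 to 4 and 6, 6, 27 and 3 without PEM-HSC replicates 1, 2, 4 and 5.

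The window of smallest p in both comparisons, chr9:58750000-58800000, holds the 5 dense members in Neo1. It had 12.6, 18.2, 14.5 and 17.3 CPM in MUL-HSC, 52.8, 32.8 and 38.3 CPM in PLT-HSC and 28.7 over a median of 33.5 to 41.8 CPM in PEM-HSC. Every restricted library was above every MUL-HSC library, with log2 fold changes of 1.41 ± 0.19 and 1.15 ± 0.17 (edgeR, adjusted p of 0.000322 and 0.00291). In PLT-HSC this window passed under all 21 alternative settings, with log2 fold changes of 1.18 to 1.54, and in PEM-HSC it did not pass with the surrogate variable or without the shallow libraries. Next in PLT-HSC came chr1:191650000-191700000 at 0.82 ± 0.13, chr15:98400000-98450000 at 0.67 ± 0.12, and chr12:112650000-112700000 and chr6:50050000-50100000 at 0.45 ± 0.08 each. The chromosome 12 window holds 12 dense members, of which 2 were called, and had 161 ± 13.6 CPM in MUL-HSC, but it did not pass without PLT-HSC replicate 1.

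The windows of smallest p called lower in PLT-HSC were chr2:27550000-27600000 at -0.49 ± 0.09, chr16:58450000-58500000 at -0.69 ± 0.13, chr4:101150000-101200000 at -1.18 ± 0.22, chr13:28900000-28950000 at -0.96 ± 0.19 and chr4:134700000-134750000 at -0.95 ± 0.18 on the log2 scale, with adjusted p from 0.00673 to 0.0082 (edgeR). The chromosome 2 window holds 11 dense members, and all 9 of its tested regions were lower although none was called alone. Those of chromosomes 16, 4 (both) and 13 did not pass without PLT-HSC replicate 1. Of the windows named for PLT-HSC, those of chromosomes 6, 2 and 16 and chr4:134700000 did not pass without the shallow libraries. In PEM-HSC the windows of smallest p called lower were chr11:95450000-95500000 at -0.94 ± 0.17, chr9:118750000-118800000 at -0.65 ± 0.13, chr9:40100000-40150000 at -0.43 ± 0.09, chr17:84200000-84250000 at -0.73 ± 0.15 and chr1:89500000-89550000 at -0.37 ± 0.08. The only other window called higher in PEM-HSC was chr13:107800000-107850000 at 0.37 ± 0.09 (adjusted p = 0.0412). Each of these PEM-HSC windows lost its call without MUL-HSC replicate 1 or 2, and all but the chromosome 11 window without MUL-HSC replicate 4. Leaving out PEM-HSC replicate 5 ended the calls of both chromosome 9 windows and those of chromosomes 1 and 13, leaving out replicate 1 those of chromosomes 1 and 13, and leaving out replicate 2 or 3 that of chromosome 13.

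Of the 52 windows over the 12 large clusters, 1 was called in each comparison with MUL-HSC. In C7, chr17:5200000-5250000 was lower in PLT-HSC at -0.46 ± 0.10 (edgeR, adjusted p = 0.0119). In C3, chr14:26300000-26350000 was lower in PEM-HSC at -0.27 ± 0.06 (adjusted p = 0.0439). The first did not pass without PLT-HSC replicate 1, and the second without any 1 of MUL-HSC replicates 1, 2 and 4, PEM-HSC replicates 1, 2 and 5 and PLT-HSC replicates 1 and 3. The remaining windows of these clusters did not pass.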

How the data were processed

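Bulk Omni-ATAC-seq libraries (Nextera kit) were analysed from the deposited table of raw read counts per region and library, which the authors made from regions in mm9. The submitters' processing notes name MACS2 and Bowtie2, with Picard, SAMtools, FastQC and Trim Galore. Versions, the counting tool, the handling of reads with several matches and whether peaks were called on pooled libraries are not stated in the labels; regions found only in deep libraries would favour those groups.

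Members were found from positions alone, and neighbours of any width were counted. Starts are printed as deposited, and whether they count from 0 or 1 is not given. Regions kept by filterByExpr by group were scaled by TMM and fitted with edgeR 4.0.16 (robust quasi-likelihood test, R 4.3.3, 1 coefficient per group, all 13 libraries), two-sided, with Benjamini-Hochberg adjustment over all tested regions of the table, chromosomes X and Y included. Autosomal counts summed in fixed 50 kb windows were fitted alike. Summed CPM over a cluster and slopes of log2 count (plus 0.5 for single regions) on log2 library total over the 13 libraries are descriptions with no test. On simulated counts for PLT-HSC against MUL-HSC with 59408 regions, 100 regions were changed at each size. Of those tested, 32.3% were recovered at a 2-fold and 72.6% at a 4-fold change, and 11 unchanged regions were called. Over 24299 windows, with as many changed, the test recovered 60% and 90% and called 7 unchanged ones. In the data 1431 regions were called, so the adjustment cuts at another p and these rates need not carry over.

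The text names the 12 clusters with most members, the 5 called members and the 5 called windows of smallest p per direction and comparison, and the strongest member of each of the 12 clusters; others are marked as chosen after their values were seen. Members and lists were chosen with earlier results of these data known. Gene names of loci fall outside that rule, and the RefSeq GRCm38.p6 table was used only for names and neighbours. Alternatives were library totals alone, DESeq2 1.42.0, a filter at a mean of 20 counts or none, the compared groups alone, a replicate block, 1 surrogate variable (sva 3.50.0), no libraries under 2000000 counts, each library left out, 100 kb windows, and other settings of the crowding rule. Leaving out the arrays from the sums, and the libraries under 2000000 counts from the sums of the 12 clusters, was chosen after seeing the data.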

Additional observations from a re-analysis of the deposited data

Results flagged for a closer look

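Among 104 groups of 4 to 6 libraries examined for a single library far from the rest, 4 had one, and chance gives about 1 in 20. MUL-HSC replicate 3 had the lowest summed level of cluster C10, 421 CPM against 454 to 459 in the other 3 MUL-HSC libraries. PEM-HSC replicate 3 had the highest level at chr11:103128227-103129410 in C10, 127 CPM against 85.1 to 101 in the other PEM-HSC libraries. The same library was highest at chr10:79446689-79448045 in C11, 119 CPM against 87.0 to 98.8. PEM-HSC replicate 5 was highest at chr7:26496715-26497287, 30.1 CPM against 19.7 to 22.9.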

How the results depend on the processing

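Replicate numbers are shared between groups. Deviations of same-numbered libraries had correlations of -0.13 to 0.10 over 10 pairs (0 over 0.1), against -0.15 to 0.21 over 44 other pairs. So few weak correlations cannot decide whether same-numbered libraries share a batch, which was not tested. With the replicate block 92 dense regions were called in PLT-HSC against MUL-HSC, 11 in PEM-HSC against MUL-HSC and 6 in PLT-HSC against PEM-HSC, and 41 and 1 windows in the first and second comparison. In the same order of these comparisons, 70 and 41 regions were called at a mean of at least 20 counts, 0 and 0 with 1 surrogate variable, and 25 and 1 without the libraries under 2000000 counts. Windows gave 1 and 0 with the surrogate variable and 10 and 0 without those libraries, and PEM-HSC windows 28 by DESeq2 and 11 with no filter. DESeq2 called 118 and 61 regions.

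With at least 7 other midpoints there were 27435 dense regions in 3286 clusters, with 372 and 130 called, and with at least 11 there were 3910 in 672 clusters, with 44 and 25 called. Joining only members closer than 10 kb gave 2553 clusters. The summed level of all members was 121200, 120600 and 120300 CPM in MUL-HSC, PEM-HSC and PLT-HSC and 118500, 117800 and 118600 CPM without the 2 regularly spaced clusters. With each library left out in turn, called regions ranged from 34 to 251 in PLT-HSC against MUL-HSC, from 2 to 160 in PEM-HSC against MUL-HSC and from 0 to 0 between the restricted groups. Windows ranged from 11 to 116, from 1 to 65 and from 0 to 0. The cause was not tested. With 1 surrogate variable none of the named members passed, with a lowest adjusted p of 0.0645, at chr15:63853365. Of the 23 named members called in PLT-HSC, DESeq2 lost 7 (chr9:40131801, chr8:73377638, chr2:158000274, chr11:96132750, chr7:26495008, chr7:26496715 and chr9:58796736), and of the 18 called in PEM-HSC it lost 3 (chr3:89676076, chr11:96131257 and chr9:58796045). With only the compared groups 3 PLT-HSC calls were lost (chr11:96132750, chr7:26495008 and chr7:26496715) and 17 kept. The rest were not tested there (chr11:96132260, chr9:58796045 and chr9:58796736). At a mean of at least 20 counts 2 PLT-HSC calls were lost (chr11:96132750 and chr7:26496715), 12 were kept, and the rest had too few counts to be tested. Of the PEM-HSC calls 0 were lost in these 2 settings, with 16 and 12 kept and the rest not tested. The replicate block lost 9 PLT-HSC and 13 PEM-HSC calls. Without the libraries under 2000000 counts 15 PLT-HSC calls were lost and 7 kept (chr7:4449771, chr18:65116864, chr8:4304026, chr15:63853365, chr2:148222720, chr9:58789541 and chr9:58796045), while 17 PEM-HSC calls were lost and 0 kept. No named call of a member or window changed sign in a fit that tested it. Depth limits single regions: 4214 dense regions had too few counts to be tested.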
